A study of Mus musculus with 7 samples.

Results

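The 38 genes described here are cell-cycle genes: 12 that act in DNA replication (S phase), 23 that act in or before mitosis and 3 cyclins of the G1 phase. They were chosen by name, as a fixed list of row names, out of 24394 genes in the count tables. All 38 were found in the first table and 37 in the second, where Cdk1 was not analysed here. Expression was measured by bulk 3' mRNA sequencing of cells sorted from female BALB/c mice, in 7 libraries of 1 per group. The first table held 3 libraries of cells negative for Ter119, CD45 and EpCAM, the surface markers of erythroid, leukocyte and epithelial cells. NMF came from the normal mammary fat pad of untreated mice 8 weeks old. The cancer-associated fibroblast sorts pCAF (podoplanin-positive) and sCAF (podoplanin-negative) came from breast tumours of mice 12 weeks old, 4 weeks after 100000 luciferase-labelled 4T1 cells were injected into the fat pad. 4T1 is a mouse mammary carcinoma line. The 4 libraries of the second table came from mice of that age and that time after injection with as many GFP-labelled 4T1 cells. Their cells were negative for Ter119 and CD45 and were split by GFP, the label of the injected cells, and by EpCAM, an epithelial surface protein. The fat pad and the tumours were dissociated with different enzymes, and the labels do not say how many animals went into a library.

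In dividing cells these genes are switched on in order. Cyclins D and E act in G1 and release the E2F factors, which drive the genes for the replicative helicase, nucleotide synthesis and the replication clamp. Genes for chromosome condensation, the spindle, the kinetochore and cytokinesis are driven later, in G2 and mitosis, in mammals largely through CHR and CCAAT elements. In a bulk library a low level of such a gene can come from fewer cycling cells or from less RNA per cycling cell, and these cannot be told apart.

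With 1 library per group no difference below has a replicate check, no p-value is given, and the ranges in parentheses are exact 95% counting intervals, which cover counting error only. Levels are CPM, a gene's counts relative to the library total after TMM scaling within a table, and since the tables were scaled separately no ratio was taken between them. The libraries held 436051 (pCAF) to 2590144 counts (sCAF), so that 3 counts, the limit that a count of 0 allows, equal 7.48 CPM in pCAF, 2.44 in NMF and 1.13 to 2.33 in the other libraries. The library labelled sCAF went against its fibroblast label. The summed level of 8 fibroblast markers was 229 CPM there (Lum and Pdpn at 0), against 61790 CPM in pCAF and 37168 CPM in NMF, with all 8 detected in each. The summed level of 8 epithelial markers was 4008 CPM in sCAF, with all 8 detected, against 89.7 CPM in pCAF (Epcam, Krt14, Cdh1 and Cldn7 at 0) and 188 CPM in NMF (Cldn4 at 0). In the second table that sum was 1064 to 11908 CPM, and the endothelial sum was 8520 CPM in GFP- EpCAM- against 35.9 to 187 CPM in the other 3 libraries. In the first table the endothelial sum was 2345 CPM in NMF, 49.9 CPM in pCAF (Pecam1, Cdh5, Tie1 and Esam at 0) and 448 CPM in sCAF. Cell makeup by these markers thus differed between the libraries, not always in the order of the proliferation genes, and its part in the results was not tested.

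Proliferation genes were lowest in the normal fat pad, intermediate in pCAF and highest in the library labelled sCAF. The 12 S-phase genes summed to 190 CPM in NMF, 381 CPM in pCAF and 1955 CPM in sCAF. The mitotic genes summed to 34.9 CPM in NMF, 334 CPM in pCAF and 1864 CPM in sCAF. Counting intervals did not overlap between any of these libraries for either class. In the second table the S-phase sum was 778 CPM in GFP- EpCAM-, 1649 CPM in GFP- EpCAM+, 1290 CPM in GFP+ EpCAM- and 1725 CPM in GFP+ EpCAM+. The mitotic sum there was 660 CPM in GFP- EpCAM-, 1664 CPM in GFP- EpCAM+, 1545 CPM in GFP+ EpCAM- and 1955 CPM in GFP+ EpCAM+. GFP- EpCAM- was the lowest of the 4 in both classes and GFP+ EpCAM+ the highest, although for the S-phase sum the intervals of GFP+ EpCAM+ and GFP- EpCAM+ overlapped.

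**Figure D1:**
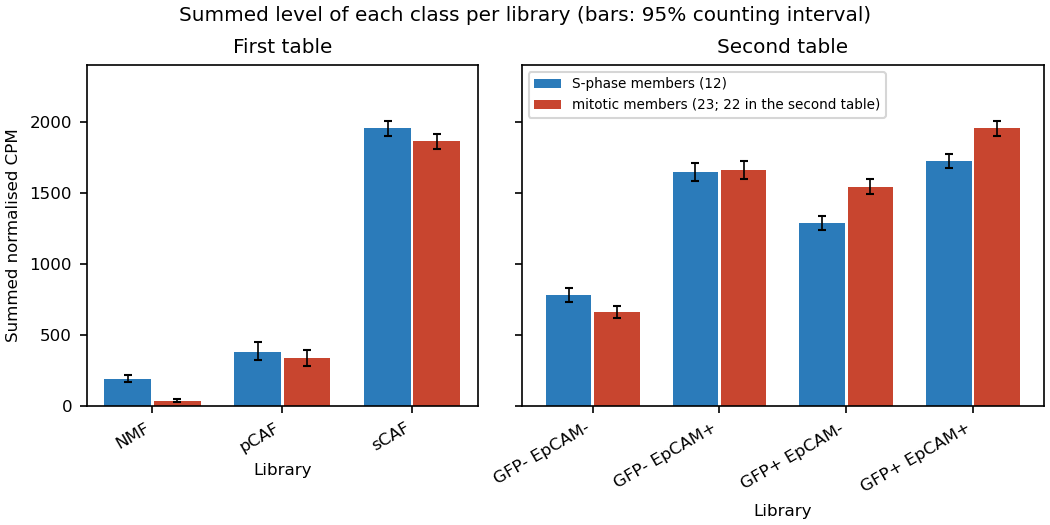
Summed normalised CPM of the 12 S-phase members (blue) and the mitotic members (red, 23 in the first table and 22 in the second) in each library, with 95% counting intervals. Both classes are highest in sCAF in the first table and lowest in GFP- EpCAM- in the second, and NMF is the library where the mitotic sum (34.9) is smallest beside the S-phase sum (190).

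The balance of the classes set the normal fat pad apart. S-phase genes made up 84.5% (79.7 to 88.5, exact binomial) of the S-phase and mitotic counts in NMF, from 234 S-phase and 43 mitotic counts. That share was 53.3% (47.4 to 59.2) in pCAF, from 153 and 134 counts, and 51.2% (50.2 to 52.2) in sCAF, from 5188 and 4946 counts. It was 54.1% (51.8 to 56.4) in GFP- EpCAM-, 49.8% (48.4 to 51.1) in GFP- EpCAM+, 45.5% (44.2 to 46.8) in GFP+ EpCAM- and 46.9% (45.9 to 47.9) in GFP+ EpCAM+. The 6 tumour libraries thus lay between 45.5% and 54.1%, below the NMF interval. These shares are not stoichiometries of the genes, since 3' counts were not set per length between genes, and only their change between libraries is read here. Pcna, which encodes the clamp that holds DNA polymerase on its template and also serves in DNA repair, gave 30.3% of the S-phase counts in NMF and 8.11% in sCAF. With Pcna left out the S-phase share was 79.1% in NMF and 41.1% to 49.1% in the tumour libraries. The NMF share rested mostly on some genes of the class, with 71 counts for Pcna, 49 for Mcm7, 39 for Rrm1 and 24 for Mcm4. Tk1, Rrm2, Tyms and Cdc6 had 1, 4, 3 and 0 counts there, as few as the mitotic genes.

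**Figure D2:**
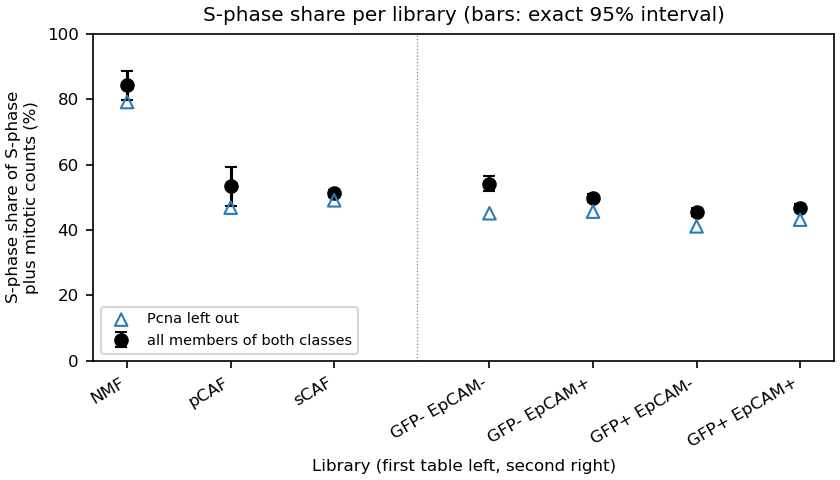
S-phase counts as a percentage of S-phase plus mitotic counts in each library (black, with the exact 95% interval) and the same with Pcna left out (open triangles). NMF stands at 84.5% and the 6 tumour libraries between 45.5% and 54.1%, and leaving out Pcna keeps NMF highest at 79.1%.

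The S-phase and mitotic genes also differed in the letters of their promoters. RefSeq promoter windows on GRCm38.p6, each from 250 bases before to 50 after a gene's start, were matched for 31 of the 38 genes, with 33 windows. The 12 S-phase windows came from 11 genes and the 20 mitotic windows from 19. Mcm7 and Prc1 had 2 windows each. Mcm4, Ccna2, Aurkb, Tpx2, Kif20a, Ccnd1 and Ccne2 had no window. Letters of the E2F motif, spelled TTCCCGC, and also TTCGCGC, and also TTGCCGC, and also TTGGCGC, of the CHR element, spelled TTTGAA, and also TTCGAA, and of the CCAAT box were searched on both strands, and E2F matches could overlap each other or, on the opposite strand, a CCAAT match. E2F letters were found in 8 of 12 windows of S-phase genes (66.7%) and 3 of 20 windows of mitotic genes (15%), against 9.57% of all 32851 windows. Both Mcm7 windows held E2F letters and are counted among the 8. CHR letters were found in 2 of the S-phase windows (16.7%) and 16 of the mitotic windows (80%), against 19.2% of all windows. CCAAT was found in 75% of the S-phase and 90% of the mitotic windows, against 37.4% of all. CHR letters and CCAAT occurred together in 16 of the 20 mitotic windows, against 7.52% of all. The E2F and CHR letters thus fell mostly in opposite classes, and a match describes letters in this window, not a bound site. The windows of 5 genes are shown. Top2a and Ccnb2 for mitosis and Mcm6 and Mcm5 for S phase show letters of their class beside large differences in level. Pcna was added because its level differed less than theirs. These 5 genes were picked after their values and motif counts had been seen. The windows are written 5′ to 3′ along the gene's strand, with E2F, CHR and CCAAT letters of either strand in capitals.
Top2a: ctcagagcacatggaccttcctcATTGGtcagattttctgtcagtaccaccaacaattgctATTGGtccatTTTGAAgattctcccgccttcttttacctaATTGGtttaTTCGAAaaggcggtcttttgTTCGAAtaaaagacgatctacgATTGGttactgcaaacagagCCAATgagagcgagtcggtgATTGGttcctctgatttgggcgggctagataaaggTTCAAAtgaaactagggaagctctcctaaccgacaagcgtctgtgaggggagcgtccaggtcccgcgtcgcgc
Ccnb2: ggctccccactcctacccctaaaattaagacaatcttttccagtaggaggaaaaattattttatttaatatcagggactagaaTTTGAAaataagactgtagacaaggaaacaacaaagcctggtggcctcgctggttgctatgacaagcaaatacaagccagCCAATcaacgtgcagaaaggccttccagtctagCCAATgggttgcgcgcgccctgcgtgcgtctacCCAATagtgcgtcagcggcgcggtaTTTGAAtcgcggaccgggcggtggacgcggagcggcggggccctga
Mcm6: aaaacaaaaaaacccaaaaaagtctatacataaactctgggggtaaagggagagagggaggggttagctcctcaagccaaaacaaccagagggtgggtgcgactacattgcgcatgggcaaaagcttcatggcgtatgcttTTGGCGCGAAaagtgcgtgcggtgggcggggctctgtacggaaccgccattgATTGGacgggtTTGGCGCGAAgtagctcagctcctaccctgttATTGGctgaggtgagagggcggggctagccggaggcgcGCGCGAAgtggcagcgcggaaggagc
Mcm5: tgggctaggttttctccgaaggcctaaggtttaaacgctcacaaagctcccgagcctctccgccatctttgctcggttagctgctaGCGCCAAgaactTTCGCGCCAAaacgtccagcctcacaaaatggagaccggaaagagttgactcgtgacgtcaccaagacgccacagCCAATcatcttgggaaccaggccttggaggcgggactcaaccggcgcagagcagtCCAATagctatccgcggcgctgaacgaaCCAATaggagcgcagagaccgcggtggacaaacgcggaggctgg
Pcna: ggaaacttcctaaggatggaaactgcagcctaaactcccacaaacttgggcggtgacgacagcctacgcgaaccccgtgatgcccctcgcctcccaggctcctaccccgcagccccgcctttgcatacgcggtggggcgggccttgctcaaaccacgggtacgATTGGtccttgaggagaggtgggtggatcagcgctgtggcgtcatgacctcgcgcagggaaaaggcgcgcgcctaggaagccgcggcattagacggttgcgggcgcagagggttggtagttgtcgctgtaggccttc

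The Top2a window (chr11:99024140-99024439, minus strand) held 4 CHR and 6 CCAAT matches and 0 E2F matches. The Ccnb2 window (chr9:70421505-70421804, minus strand) held 2 CHR and 3 CCAAT matches. The Mcm6 window (chr1:128359656-128359955, minus strand) held 5 E2F matches, some overlapping, 2 CCAAT and 0 CHR matches, and the Mcm5 window (chr8:75109259-75109558, plus strand) 3 E2F and 3 CCAAT matches. The Pcna window (chr2:132253131-132253430, minus strand) held 1 CCAAT match and none of the E2F or CHR letters. The printed windows do not stand for every member. Tk1 and Birc5 had the largest sCAF to NMF ratios of their classes, 239-fold and 221-fold, each resting on 1 count in NMF. Their windows held none of the E2F, CHR or CCAAT letters.

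**Figure D3:**
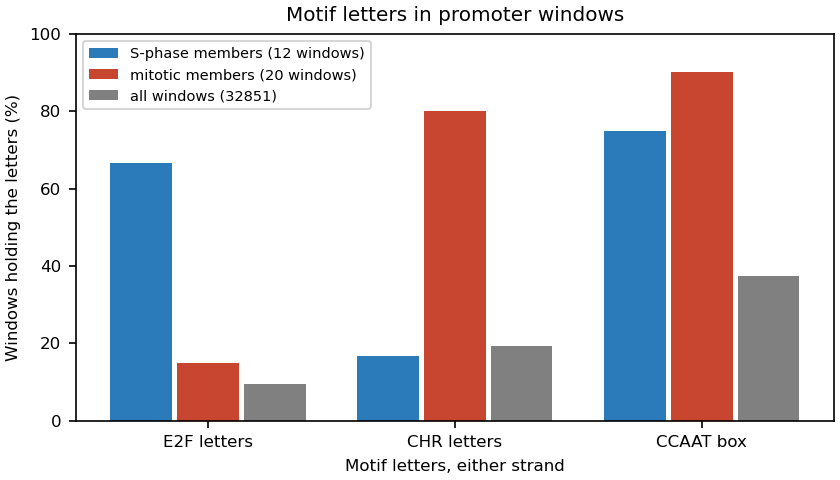
Percentage of promoter windows that hold E2F, CHR or CCAAT letters on either strand, for S-phase members (12 windows of 11 genes), mitotic members (20 windows of 19 genes) and all 32851 windows. E2F letters are most frequent in S-phase windows (66.7%) and CHR letters in mitotic windows (80%), while CCAAT is frequent in both.

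Among the G1 cyclins, Ccnd1 carried nearly all counts and followed another pattern than the rest. Ccnd1 (GRCm38 chromosome 7, 144929931 to 144939925, minus strand) encodes cyclin D1, which with Cdk4 or Cdk6 phosphorylates the retinoblastoma protein. It stood at 83.6 CPM in NMF, 24.9 CPM in pCAF and 1460.4 CPM in sCAF. In the second table it stood at 652 CPM in GFP- EpCAM-, 1257 CPM in GFP- EpCAM+, 1758 CPM in GFP+ EpCAM- and 1719.6 CPM in GFP+ EpCAM+. Ccnd1 was therefore lowest in pCAF, where both other classes were above NMF, and in the second table it was lowest in GFP- EpCAM-. It was 1.93-fold (1.78 to 2.09) higher with EpCAM among GFP- cells and 1.37-fold (1.30 to 1.44) higher with GFP among EpCAM+ cells, and the GFP+ libraries did not differ beyond counting error. Ccne1, which encodes cyclin E1, a partner of Cdk2, stood at 3.25 CPM in NMF, 2.49 CPM in pCAF and 19.2 CPM in sCAF, and between 6.22 CPM (GFP- EpCAM-) and 11.5 CPM (GFP+ EpCAM-) in the second table. Ccne2, encoding cyclin E2, had 1 count in NMF, 6 in pCAF and 0 in sCAF, and 3, 0, 4 and 2 counts in GFP- EpCAM-, GFP- EpCAM+, GFP+ EpCAM- and GFP+ EpCAM+. Its 6 counts in pCAF, the shallowest library, were its highest count, and no comparison reached the 20 counts required for a call.

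The S-phase members with the largest counts were Pcna, Tk1 and subunits of the Mcm2 to Mcm7 helicase, which unwinds DNA at the replication fork. Mcm7 (chromosome 5, 138164583 to 138172422, minus strand) stood at 39.8 CPM in NMF, 42.4 CPM in pCAF and 324 CPM in sCAF, and at 73.8, 269, 209 and 237 CPM in GFP- EpCAM-, GFP- EpCAM+, GFP+ EpCAM- and GFP+ EpCAM+. Mcm6 (chromosome 1, 128331590 to 128359664, minus strand) stood at 7.31 CPM in NMF, 44.9 CPM in pCAF and 371 CPM in sCAF, and at 43.5, 176, 118 and 164 CPM in the second table in the same order. Mcm5 stood at 7.31, 29.9 and 275 CPM in NMF, pCAF and sCAF, and at 67.6, 202, 99.0 and 183 CPM in the second table. All 3 were highest in sCAF within the first table and lowest in GFP- EpCAM- within the second. Mcm7, however, differed between pCAF and NMF by less than counting error. Its ratio there fell on either side of 1 with the scaling (log2 0.09 here, -0.11 with total counts). Pcna (chromosome 2, 132249162 to 132253314, minus strand) moved least, with 57.6, 87.2 and 159 CPM in NMF, pCAF and sCAF and 235, 253, 210 and 241 CPM in the second table. Tk1, the thymidine kinase that salvages thymidine for DNA synthesis, stood at 0.812 CPM in NMF (1 count), 37.4 CPM in pCAF and 194 CPM in sCAF, and at 105, 250, 160 and 234 CPM in the second table.

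Ribonucleotide reductase, which makes deoxynucleotides, showed its subunits apart in sCAF. Rrm1, the large subunit, stood at 31.7, 54.8 and 156 CPM in NMF, pCAF and sCAF. Rrm2, the small subunit, had 4 counts in NMF, 12 in pCAF and 13 in sCAF, or 3.25, 29.9 and 4.90 CPM. In the second table Rrm2 stood at 48.2, 65.5, 76.4 and 115 CPM in GFP- EpCAM-, GFP- EpCAM+, GFP+ EpCAM- and GFP+ EpCAM+. Among S-phase genes it alone was highest in pCAF. As a share of S-phase plus mitotic counts Rrm2 was 0.128% in sCAF, against 4.18% in pCAF, 1.44% in NMF and 1.98% to 3.35% in the second table. The checkpoint kinase gene Bub1 was low in the same library, with 1 count in sCAF, a share of 0.00987% against 0.288% to 0.504% in the second table. Cdk1, the kinase that starts mitosis, had 2 counts in sCAF and 0 in NMF and pCAF. The sources used here do not give how reads shared by several genes were counted. Of the other S-phase genes, Cdc6, which loads the helicase, and Tyms, thymidylate synthase, had at most 12 and 28 counts in any library.

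The 6 mitotic members with the largest counts had 1 to 8 counts in NMF and lay above the limit of detection in every tumour library, while many other mitotic members had 0 to 3 counts in pCAF, at or under its limit. Cenpa (chromosome 5, 30666777 to 30674830, plus strand), which encodes the histone H3 variant of centromeres, stood at 6.49, 47.4 and 265 CPM in NMF, pCAF and sCAF, and at 128, 326, 214 and 281 CPM in GFP- EpCAM-, GFP- EpCAM+, GFP+ EpCAM- and GFP+ EpCAM+. Top2a (chromosome 11, 98992943 to 99024189, minus strand), the topoisomerase that untangles sister chromatids, stood at 1.62, 44.9 and 301 CPM in the first table and at 66.0, 157, 202 and 274 CPM in the second, in the same orders. Both levels were lowest in NMF and highest in sCAF, but in the second table Cenpa was highest in GFP- EpCAM+ and Top2a in GFP+ EpCAM+. Ube2c, the ubiquitin-conjugating enzyme of the anaphase-promoting complex, stood at 1.62, 24.9 and 174 CPM in NMF, pCAF and sCAF, and at 78.5, 155, 166 and 189 CPM in the second table. Birc5, which encodes survivin of the chromosomal passenger complex, stood at 0.812, 27.4 and 179 CPM, and at 60.6, 199, 125 and 185 CPM in the second table. Ccnb2, cyclin B2, stood at 0.812, 39.9 and 175 CPM, and at 51.3, 154, 104 and 139 CPM in the second table. Birc5 and Ccnb2 shared the order of Cenpa in the second table, with GFP- EpCAM+ highest and GFP- EpCAM- lowest. Plk1, the polo-like kinase of mitotic entry, stood at 1.62, 24.9 and 83.6 CPM, and at 23.3, 101, 84.6 and 129 CPM in the second table.

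Several mitotic genes with fewer counts were also highest in sCAF among the first 3 libraries. Kif20a, a kinesin of cytokinesis, stood at 0.812, 4.99 and 41.4 CPM in NMF, pCAF and sCAF, and at 14.0, 42.8, 26.0 and 35.9 CPM in the second table. Cenpe, the kinetochore kinesin, had 4 counts in NMF, 0 in pCAF and 68 in sCAF, and 5, 30, 62 and 60 counts in the second table. Tpx2, the activator of Aurora kinase A, had 0 counts in NMF and pCAF and 57 in sCAF, and 5, 6, 15 and 29 counts in the second table. Aurka and Aurkb, the Aurora kinases, also had 0 counts in pCAF, against 98 and 141 in sCAF and 1 each in NMF. In pCAF a count of 0 allows up to 7.48 CPM, so a low level of these 4 genes was not detectable at this depth. The proliferation marker Mki67 stood at 1.62, 22.4 and 126 CPM in the first table and between 19.4 and 35.5 CPM in the second, which was scaled separately.

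**Figure D4:**
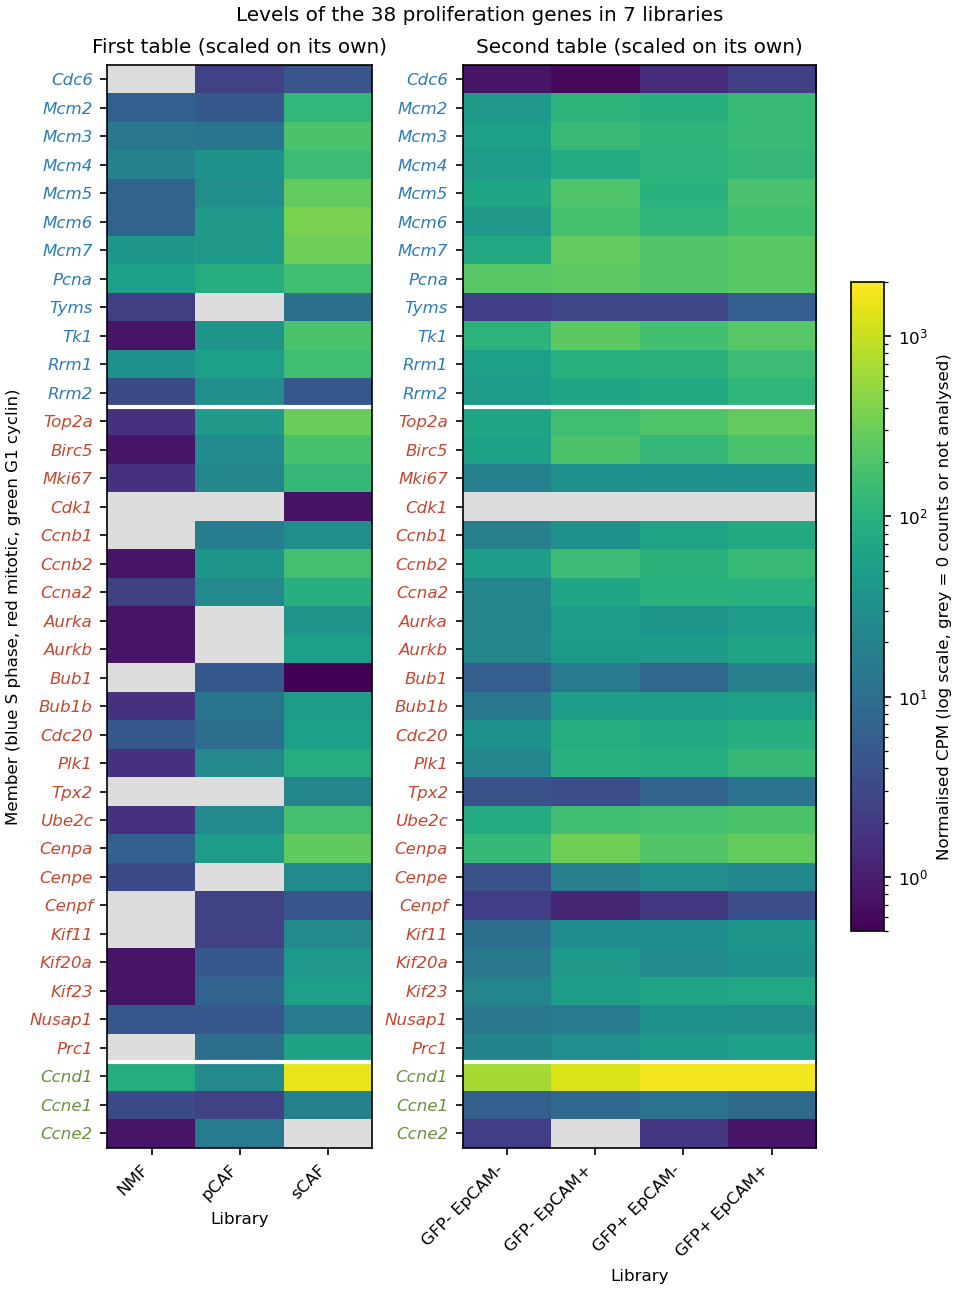
Normalised CPM of each of the 38 members in each library on a log colour scale, by class, with the tables scaled separately and grey for 0 counts or a gene not analysed. For most mitotic members NMF is the darkest column of the first table, or grey, and sCAF the brightest, while for most members GFP- EpCAM- is the darkest column of the second table.

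Members were ranked by level within each table. In the first table most members reached the required counts through sCAF, the library where they were highest. In both tables the number highest or lowest in a library is a description only. Of 33 members with at least 20 counts over the first table, 32 were highest in sCAF, the exception being Rrm2, and 24 were lowest in NMF. The 9 lowest in pCAF were Mcm2, Mcm3, Tyms, Aurka, Aurkb, Tpx2, Cenpe, Ccnd1 and Ccne1. Of 34 such members of the second table, 32 were lowest in GFP- EpCAM-, the exceptions being Pcna and Tpx2. The highest level was in GFP+ EpCAM+ for 18 members, in GFP- EpCAM+ for 11 and in GFP+ EpCAM- for 5, namely Ccna2, Cenpe, Nusap1, Ccnd1 and Ccne1. Many of these neighbouring levels differ by less than their counting intervals.

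The comparison of pCAF with NMF asks what the podoplanin-positive fibroblasts of the tumour express beyond the normal stroma. All S-phase members together were 2.01-fold (1.63 to 2.47) higher in pCAF and all mitotic members 9.57-fold (6.74 to 13.8) higher, while the G1 cyclins were 2.07-fold (1.23 to 3.68) lower. The ratio of S-phase to mitotic counts in pCAF was 0.210 times (0.137 to 0.318) that in NMF. Beside these sums, all 7 endothelial markers were called lower in pCAF, with a sum 47.0-fold (30.4 to 77.1) lower. The epithelial sum was 2.10-fold (1.47 to 3.07) lower, and the leukocyte sum 4.75-fold (2.96 to 7.73) higher with Ptprc at 0, and the part of these shifts was not tested. For single genes a call of higher or lower required at least 20 counts over both libraries and a counting interval wholly beyond 2-fold. Only 10 of the 38 members had the counts, and 3 of them were called higher and 0 lower, against 7.58% of 8129 genes called higher and 7.91% called lower. Top2a was 27.6-fold (6.62 to 246) higher, from 18 counts against 2. Cenpa was 7.29-fold (3.05 to 19.3) higher, from 19 counts against 8. Mcm6 was 6.14-fold (2.62 to 15.5) higher, from 18 counts against 9. Mcm5 at 4.09-fold (1.58 to 11.0), Pcna at 1.51-fold (0.980 to 2.30) and Mcm7 at 1.07-fold (0.575 to 1.88) were not called, nor was Ccnd1, which was 3.35-fold (1.75 to 7.20) lower. The median log2 ratio of the 10 was 0.82 against -0.20 for all genes. Scaled to total counts, the share of all calls that were higher was 37.3% against 48.9% here, the median of all genes was -0.41, and Ccnd1 was called lower. With both libraries thinned to equal depth 2 members were called, 1 higher and 1 lower, of which 1 was among the 3.

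The comparison of sCAF with NMF shares the NMF library with the one before. S-phase members together were 10.3-fold (9.02 to 11.8) higher in sCAF, mitotic members 53.4-fold (39.6 to 73.9) and G1 cyclins 16.9-fold (13.9 to 20.6). Relative to mitotic counts, S-phase counts were 0.193 times (0.136 to 0.268) as high as in NMF. Of 32 members with enough counts 30 were called higher, all but Tyms and Nusap1, and 0 lower, against 15.9% of 9815 genes called higher and 17.3% called lower. All tested mitotic members and most tested S-phase members reached 20 counts through sCAF alone, so this count and the class medians are a description. The median log2 ratio of the mitotic members, with 4 ratios as bounds, was 5.43. It was 3.40 for the S-phase members and 0.17 for all genes. Tk1 had the largest ratio, 239-fold (42.6 to 9440.1), resting on 1 count in NMF. Of the helicase genes Mcm6 was 50.8-fold (26.7 to 112) and Mcm5 37.7-fold (19.7 to 82.8) higher. Pcna was the least changed of the called genes at 2.75-fold (2.14 to 3.59). Cenpa was 40.8-fold (20.6 to 94.8) and Ccnd1 17.5-fold (14.4 to 21.5) higher. Prc1, which bundles microtubules of the central spindle, and Ccnb1, cyclin B1, had 0 counts in NMF. With 3 counts in place of 0, Prc1 was 24.1-fold and Ccnb1 12.5-fold higher. Their counting intervals started at 19.4 and 9.96. The epithelial marker sum was 4008 CPM in sCAF against 188 CPM in NMF, as given above.

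Between pCAF and sCAF both classes differed by about the same factor. S-phase members were 5.12-fold (4.36 to 6.06) lower in pCAF, mitotic members 5.58-fold (4.70 to 6.67) and G1 cyclins 34.9-fold (21.8 to 60.0). The ratio of S-phase to mitotic counts in pCAF was 1.09 times (0.855 to 1.39) that in sCAF, an interval that covers 1. Of 33 members tested 22 were called lower and 1 higher, against 11.2% of 8915 genes called lower and 11.5% called higher. Most tested members passed the count minimum only through sCAF, where they were high, so these counts are a description. Rrm2, the gene called higher, stood at 6.11-fold (2.55 to 14.5), from 12 counts against 13. At equal depth 0 members were called higher and 19 lower. Mcm2 was 24.0-fold (6.60 to 199) lower and Mcm3 15.2-fold (6.47 to 47.0), the widest gaps among the helicase subunits. Cenpa was 5.59-fold (3.55 to 9.34) lower and Birc5 6.54-fold (3.62 to 13.2), and Ccnd1 had the largest ratio of all members, 58.6-fold (31.8 to 122) lower from 10 counts against 3876. Pcna, at 1.82-fold (1.29 to 2.65) lower, was among the 10 genes not called. The median of the members, a description for the same reason as the counts of calls, was -2.48 against -0.44 for all genes. Beside these differences, the fibroblast sum was 270-fold (249 to 293) higher in pCAF and the leukocyte sum 11.8-fold (7.19 to 19.6) higher. The epithelial sum was 44.7-fold (32.2 to 63.8) lower and the endothelial sum 8.99-fold (5.79 to 14.8) lower. The part of these marker shifts was not tested.

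**Figure D5:**
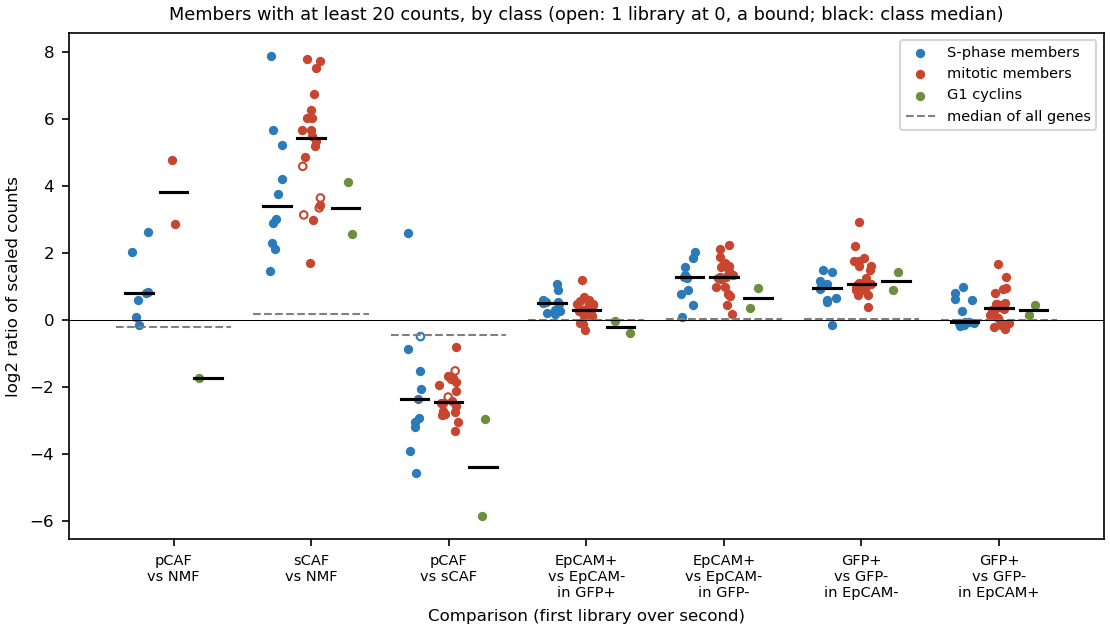
The log2 ratio of every member with at least 20 counts in each of the 7 comparisons, coloured by class, with class medians in black, the median of all genes dashed, and open circles for bounds where 1 library had 0 counts. The mitotic median (5.43) lies above the S-phase median (3.40) for sCAF versus NMF, and the classes lie close together in the second table. For sCAF versus NMF and for pCAF versus sCAF most members reached 20 counts through sCAF alone, so the class medians there are a description.

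Within the GFP+ tumour cells, EpCAM made a small difference. S-phase members together were 1.34-fold (1.27 to 1.40) and mitotic members 1.26-fold (1.21 to 1.32) higher in EpCAM+ than in EpCAM- cells, and the G1 cyclins stood at 0.976 (0.934 to 1.02). Relative to mitotic counts, S-phase counts were 1.06 times (0.990 to 1.13) as high, and 1.09 times (1.02 to 1.18) without Pcna and Cenpa. Of 34 members tested 0 were called in either direction, against 0.736% of 9100 genes called higher and 0.396% called lower. By value 29 ratios were above 1 and 5 below, with a median log2 ratio of 0.35 against 0.01 for all genes. Bub1 had the largest at 2.27 (1.28 to 4.22), from 46 counts against 17, and Ccne1 the smallest at 0.769 (0.411 to 1.43). Mcm5 stood at 1.84 (1.56 to 2.18) and Plk1 at 1.52 (1.26 to 1.84), and Pcna at 1.14 (1.01 to 1.30).

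Within the GFP- cells, EpCAM+ had the higher level of proliferation genes by more than 2-fold for mitotic members. S-phase members together were 2.12-fold (1.97 to 2.28) higher in EpCAM+, mitotic members 2.52-fold (2.33 to 2.73) and G1 cyclins 1.92-fold (1.77 to 2.08). The ratio of S-phase to mitotic counts was 0.840 times (0.755 to 0.935) that in EpCAM-, but 1.02 times (0.905 to 1.16) with the most abundant gene of each class, Pcna and Cenpa, left out. Of 32 members tested 9 were called higher and 0 lower, against 7.33% of 9518 genes called higher and 12.7% called lower. They were the helicase genes Mcm5, Mcm6 and Mcm7 and the mitotic genes Birc5, Ccnb2, Ccna2, Bub1b, Plk1 and Cenpa. Plk1 was 4.33-fold (2.92 to 6.62), Mcm6 4.05-fold (3.03 to 5.49) and Mcm7 3.64-fold (2.91 to 4.59) higher. Cenpe had the largest ratio, 4.73 (1.82 to 15.6), but 5 counts in EpCAM- and no call, and Pcna the smallest, 1.07 (0.923 to 1.25). All 32 ratios were above 1, with a median log2 of 1.26 against 0.03 for all genes. The epithelial sum was 11908 CPM in EpCAM+ against 1064 CPM in EpCAM- and the endothelial sum 187 CPM against 8520 CPM, and their part in this difference was not tested.

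Within the EpCAM- cells, GFP+ was compared with the same GFP- EpCAM- library. Mitotic members together were 2.34-fold (2.17 to 2.53), S-phase members 1.66-fold (1.54 to 1.79) and G1 cyclins 2.68-fold (2.49 to 2.89) higher in GFP+. The S-phase to mitotic ratio was 0.708 times (0.636 to 0.787) that in GFP-, and 0.794 times (0.704 to 0.897) without Pcna and Cenpa. Of 33 members tested 10 were called higher and 0 lower, against 5.55% of 9551 genes called higher and 14.1% called lower. Among these were Mcm6 and Mcm7, 7 mitotic genes (Top2a, Ccnb1, Ccna2, Bub1b, Plk1, Cenpe and Kif23) and Ccnd1. Cenpe was 7.67-fold (3.12 to 24.4), Ccna2, the cyclin of S phase and G2, 4.64-fold (3.12 to 7.15) and Top2a 3.06-fold (2.42 to 3.91) higher. Pcna stood at 0.894 (0.771 to 1.04), the 1 ratio below 1 of 33, and the median log2 ratio was 1.07 against 0.03 for all genes. The endothelial sum was 67.3 CPM in GFP+ and the fibroblast sum 64.4 CPM, against 8520 CPM and 4099 CPM in GFP-, and their part was not tested.

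Within the EpCAM+ cells, GFP made a small difference for the S-phase and mitotic members. S-phase members together stood at 1.05 (0.997 to 1.10), or 1.14 (1.09 to 1.20) scaled to total counts, mitotic members at 1.17 (1.12 to 1.23) and G1 cyclins at 1.37 (1.30 to 1.44) in GFP+ relative to GFP-. The S-phase to mitotic ratio was 0.891 times (0.832 to 0.953) that in GFP-, but 0.950 times (0.885 to 1.02) without Top2a, Mki67 and Ccna2, which also act in S phase or G2. Of 34 members tested 0 were called, against 0.216% of 9241 genes called higher and 4.18% called lower. Ratios were above 1 for 23 members and below 1 for 11, with a median log2 of 0.31 against 0.01 for all genes. Tpx2 had the largest ratio, 3.18 (1.30 to 9.37), from 29 counts against 6, followed by Ccnb1 at 2.44 (1.79 to 3.39), and Kif20a the smallest, 0.837 (0.605 to 1.16). Scaled to total counts the S-phase median moved from -0.05 to 0.08 as the median of all genes moved from 0.01 to 0.14, so its sign depends on the scaling.

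Other genes of the same processes were counted from wider lists. Of 38 further replication genes, 12 were tested in pCAF against NMF and 1 was called higher, near the 7.58% of all genes. It was Chaf1b of chromatin assembly, at 13.1-fold (4.26 to 53.3), and the list's sum was 1.49-fold (1.28 to 1.74) higher. In sCAF against NMF 26 of 34 were called higher, beside 15.9% of all genes, and 0 lower, with a sum 5.90-fold (5.39 to 6.47) higher. Of 55 further mitotic genes in the first table, 3 of 7 tested were called higher in pCAF against NMF, Spc24, Pttg1 and Smc4, and their sum was 3.81-fold (3.17 to 4.58) higher. In sCAF against NMF 41 of 45 were called higher and 0 lower, with a sum 13.2-fold (11.5 to 15.2) higher. Of these 45, 16 had 0 counts in NMF and passed the count minimum through sCAF alone, so this count is a description. As with the members, the mitotic list stood farther from NMF than the replication list in both tumour sorts. For EpCAM in GFP- cells 7 of 33 replication genes and 7 of 46 mitotic genes were called higher, beside 7.33% of all genes, and 0 lower. For GFP in EpCAM- cells 5 of 35 and 7 of 48 were called higher, beside 5.55% of all genes, and 0 lower. In the remaining contrasts of the second table neither list had a called gene (0 of 37 and 0 of 48 in each). Of all genes 0.736% were called higher and 0.396% lower for EpCAM in GFP+ cells. For GFP in EpCAM+ cells these shares were 0.216% and 4.18%, so 0 is near its background in both contrasts. Smc4, a condensin subunit, had 24 counts in pCAF, 8 in NMF and 4 in sCAF. It was the further mitotic gene called higher in pCAF than in sCAF, at 39.7-fold (13.6 to 157), while 12 of 47 were called lower. Of all genes 11.5% were called higher and 11.2% lower in that comparison.

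Among the inhibitors of cyclin-dependent kinases, some calls went opposite to the members and others went with them. Cdkn1a, which encodes p21, stood at 76.3 CPM in NMF, 239 CPM in pCAF and 34.3 CPM in sCAF, and at 805, 198, 73.0 and 61.6 CPM in GFP- EpCAM-, GFP- EpCAM+, GFP+ EpCAM- and GFP+ EpCAM+. It was thus highest in GFP- EpCAM-, where the members were lowest, and among the first 3 libraries highest in pCAF. Cdkn1a was called 3.14-fold (2.33 to 4.21) higher in pCAF than in NMF, and 4.06-fold (3.58 to 4.61) lower in EpCAM+ than in EpCAM- cells without GFP. In GFP+ it was called 11.0-fold (9.29 to 13.2) lower among EpCAM- cells and 3.22-fold (2.65 to 3.92) lower among EpCAM+ cells. Cdkn1c, encoding p57, stood at 320 CPM in NMF, 82.3 CPM in pCAF and 0.377 CPM in sCAF (1 count), and was called 3.89-fold (2.72 to 5.73) lower in pCAF than in NMF. Cdkn1b, encoding p27, was called 4.86-fold (2.24 to 11.0) higher in pCAF than in NMF, from 19 counts against 12. The calls of Cdkn1a and Cdkn1b in pCAF against NMF thus went with the S-phase and mitotic sums. Cdkn2c, encoding the Cdk4 and Cdk6 inhibitor p18, went with the members in sCAF, being called 5.82-fold (3.15 to 11.9) higher in sCAF than in NMF and 3.33-fold (2.08 to 5.58) higher in the GFP+ than the GFP- library without EpCAM. Of the 10 inhibitors and pocket proteins, 2 of 7 were called higher and 2 lower in pCAF against NMF, 1 of 7 higher and 2 lower in sCAF against NMF, and 3 of 7 higher and 1 lower in pCAF against sCAF. Over all genes the shares called higher and lower were 7.58% and 7.91%, 15.9% and 17.3%, and 11.5% and 11.2%, so that 1 of 7 is near its background. For EpCAM in GFP- cells 0 of 8 were called higher and 3 lower, for GFP in EpCAM- cells 1 of 8 higher and 2 lower, and for GFP in EpCAM+ cells 0 of 7 higher and 1 lower, beside 12.7%, 14.1% and 4.18% of all genes called lower.

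Kinases, other D cyclins and E2F factors of G1 were called in few cases. Cdk4, the partner of cyclin D1, stood at 189 CPM in NMF, 125 CPM in pCAF and 783 CPM in sCAF, and at 339.5, 824, 622 and 701 CPM in GFP- EpCAM-, GFP- EpCAM+, GFP+ EpCAM- and GFP+ EpCAM+. Its order over the first 3 libraries was that of Ccnd1, with pCAF lowest and sCAF highest. Cdk4 was called 4.14-fold (3.61 to 4.76) higher in sCAF than in NMF and 2.43-fold (2.18 to 2.71) higher in EpCAM+ than in EpCAM- cells without GFP. Ccnd2, cyclin D2, went the other way, with 94.2, 37.4 and 13.9 CPM in NMF, pCAF and sCAF and 144, 17.7, 44.7 and 24.2 CPM in the second table. It was called 6.76-fold (4.63 to 10.1) lower in sCAF than in NMF, 8.10-fold (5.46 to 12.4) lower in EpCAM+ than in EpCAM- cells without GFP, and 3.22-fold (2.49 to 4.17) lower with GFP among EpCAM- cells. E2f8, an atypical E2F repressor, had 0 counts in NMF and pCAF and 136 in sCAF, and was called 5.23-fold (2.94 to 10.1) higher with GFP among EpCAM- cells. Of the 13 genes of this list 0 of 7 were called in pCAF against NMF, and 4 of 11 were called higher and 1 lower in sCAF against NMF. In pCAF against sCAF 1 of 11 was called higher and 3 lower, and 1 of 11 was called in each direction for EpCAM in GFP- cells and for GFP in EpCAM- cells. These counts of 1 are near or under the shares of all genes given above, and read as no result about the list.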

How the data were processed

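Counts per gene symbol were deposited by the authors as whole numbers with no normalization. The submitters' processing notes name mm10 as the build and, among the tools, STAR, HTSeq, DESeq2, cutadapt and bcl2fastq. Not given in the sources used here are their versions, strand, the handling of reads shared by several genes and any collapsing by molecular identifier, so genes with pseudogenes or overlapping neighbours are uncertain and counts may hold amplification duplicates. Names turned into dates (27 and 21, 0.1523% to 0.1979% of a library's counts) were left out, and 0 columns were unmapped.

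The members, lists and tests were chosen with earlier results of these data known, and the printed promoters after their values and motif counts were seen. Ratios of counts were scaled by TMM (edgeR 4.0.16, R 4.3.3) within each table over all genes, with exact conditional binomial (Clopper-Pearson) intervals (scipy 1.17.1, Python 3.11.15). A gene needed at least 20 counts over the compared libraries, and was called when its entire 95% interval was past 2-fold. Where 1 library had 0 counts, 3 counts took its place and the ratio is given as a bound. The ratio of S-phase to mitotic counts was compared by the odds ratio with its exact conditional interval, which needs no scaling. The method was run on simulated counts with set changes and counting error only, so scaling, spread between samples and amplification duplicates were not covered. Alternatives were DESeq2 1.42.0 size factors, total counts, totals without ribosomal protein genes, a minimum of 100 counts, no minimum, a 4-fold rule, thinning to equal depth, and other class members. Values are given for the G1 cyclins, the 6 mitotic and 5 S-phase members with the largest counts, the largest and smallest ratio of each comparison and any member called against its class. Other members, chosen after their values were seen, are named where a count or class turns on them, as are those of the wider lists. Gene positions are from GENCODE for GRCm38.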

Additional observations from a re-analysis of the deposited data

Results flagged for a closer look

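Mcm7 and Cenpa had GFP ratios in opposite directions in the EpCAM- and EpCAM+ cells, and the difference was not tested. Mcm7 stood at 2.83 (2.26 to 3.57) in GFP+ relative to GFP- among EpCAM- cells and at 0.880 (0.777 to 0.999) among EpCAM+ cells. Cenpa stood at 1.67 (1.39 to 2.01) among EpCAM- cells and at 0.862 (0.769 to 0.967) among EpCAM+ cells. Scaled to total counts, the EpCAM+ ratios were 0.963 (0.850 to 1.09) for Mcm7 and 0.943 (0.841 to 1.06) for Cenpa, so those intervals cover 1, while the EpCAM- ratios were 3.09 (2.47 to 3.89) and 1.82 (1.52 to 2.19). Each contrast is 1 library against 1 library.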

How the results depend on the processing

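No paired analysis was possible because each group is 1 library, and no library could be left out of a comparison. Of the S-phase to mitotic ratios, 26 of 28 alternative values lay within the counting interval of the reported value, which is wide for NMF and pCAF. Without the most abundant gene of each class (Pcna and Cenpa) the ratio for EpCAM in GFP- cells turned from 0.840 to 1.02 and that for GFP in EpCAM- cells moved from 0.708 to 0.794. In the order of the report, 1259, 3256, 2024, 103, 1903, 1876 and 406 genes were called; with at least 100 counts 659, 2000, 1250, 54, 1070, 1047 and 133, and with the 4-fold rule 405, 1725, 934, 28, 916, 1008 and 236, since fewer genes can pass. With no count filter 623 were called for GFP in EpCAM+ cells. Members called in pCAF against NMF were 3, and 0 with at least 100 counts, 14 with no count filter and 1 with the 4-fold rule. Under that rule 8 members were called in pCAF against sCAF (23 before), and 0 for EpCAM in GFP- cells (9) and for GFP in EpCAM- cells (10). In all other planned settings the number of members called stayed within 1.5 times, but not always the genes: at equal depth 1 of the 3 calls in pCAF against NMF was kept and 18 of the 23 in pCAF against sCAF. Scaling with the compared libraries alone, and class ratios without Cdk1, Rrm2 and Bub1, were added after seeing the data and stayed within these limits. With total counts the log2 median over all genes shifted by more than 0.1 in pCAF against NMF (-0.20 to -0.41), pCAF against sCAF (-0.44 to -0.60), GFP in EpCAM- cells (0.03 to 0.15) and GFP in EpCAM+ cells (0.01 to 0.14), and DESeq2 factors in pCAF against sCAF (to -0.30). Depth limits pCAF most, where 28 of 38 members lacked the counts to be compared with NMF.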
